A study of Mus musculus with 12 samples.

Results

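Acetylation of histone H3 at lysine 9 (H3K9ac), found at active promoters and enhancers, was examined over the genes of 10 nuclear receptors that govern metabolism in the liver: Nr1h4 (FXR), Nr1h3 (LXR alpha), Ppara, Nr1i2 (PXR), Nr1i3 (CAR), Rxra, Nr0b2 (SHP), Esrra, Rora and Thrb. The genes were chosen by name from the nuclear receptor family, by a rule that uses no measured value but was written with earlier results of these data known. They are 10 of the 21911 protein-coding genes of the GENCODE M21 annotation of GRCm38 (mm10). The window of a gene was its body joined with 5 kb either side of its start, the most upstream start in the annotation. Peaks came from ChIP-seq of whole liver of adult mice: 2 C57BL/6J mice (B6), 2 MSM/Ms mice (MSM, an inbred strain of Japanese wild origin), and, from the reciprocal crosses, 1 hybrid with B6 as the mother and MSM as the father (F1 BM) and 1 with MSM as the mother and B6 as the father (F1 MB). The labels name no treatment and no engineered allele. The study used these libraries to ask whether acetylated domains end at insertions of B2, a short interspersed repeat, that only one strain carries, and counted reads by allele in the hybrids. Alleles were not analysed here. The windows held 328 of the 102889 peaks of the 6 lists (0.319%), with 62 in B6 replicate 1, 39 in B6 replicate 2, 60 in MSM replicate 1, 58 in MSM replicate 2, 64 in F1 BM and 45 in F1 MB.

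Nuclear receptors are transcription factors that bind small lipophilic ligands and act on response elements built from the half-site AGGTCA. FXR senses bile acids and induces SHP, a receptor without a DNA-binding domain that shuts down bile acid synthesis. LXR alpha senses oxysterols, PPAR alpha senses fatty acids and drives their oxidation in fasting, and PXR and CAR sense drugs and other foreign compounds. All of these except SHP pair with RXR alpha, while ERR alpha and ROR alpha also bind as monomers, and the product of Thrb is the main thyroid hormone receptor of hepatocytes.

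The lists differed in length within B6. They held 11619 peaks in B6 replicate 2, 13235 in F1 MB, 17310 and 17584 in the MSM replicates, 20173 in F1 BM and 22968 in B6 replicate 1. The median fold enrichment of a list lay between 3.38 in F1 BM and 5.23 in B6 replicate 1, so a fold is also given below as a percentile, the share of the peaks of its own list with the same or a lower value. In medians and profiles of percentiles a gene without a peak counts as 0. The tissue was checked on marker genes. All 7 hepatocyte markers had a domain (peaks at most 500 bp apart, joined) within 500 bp of the gene start in all 6 libraries, the 4 Kupffer cell and the 4 non-liver markers had no peak in any library, and 1 of the 4 stellate and 1 of the 4 bile duct markers had one in some library. The 4 endothelial markers had peaks in some libraries and none had a peak in all 6. Liver was taken whole, so fewer cells of a type and less acetylation per cell cannot be told apart. The lists give no read counts, so a peak absent from a list may only have been too weak for it.

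H3K9ac lay at the start of 8 of the 10 genes in all 6 libraries (80.0%), against 21.7% of all protein-coding genes (4748 of 21911). The exceptions were Rora, whose upstream start had a domain only in MSM replicate 2, and Esrra, which had one in 4 libraries. Counting the whole window, 9 of the 10 genes had a peak in every library, beside 28.5% of all protein-coding genes. The median acetylated length, the bp of a window under peaks, was 3399 bp over the 10 genes. The highest fold of a gene stood at a median percentile of 96.9, and per library this median lay between 95.1 and 97.6. For the 7 hepatocyte markers the median was 92.0, and no value over all genes is given here. The measure takes the highest of all peaks in a window, so windows with many peaks are favoured.

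**Figure D1:**
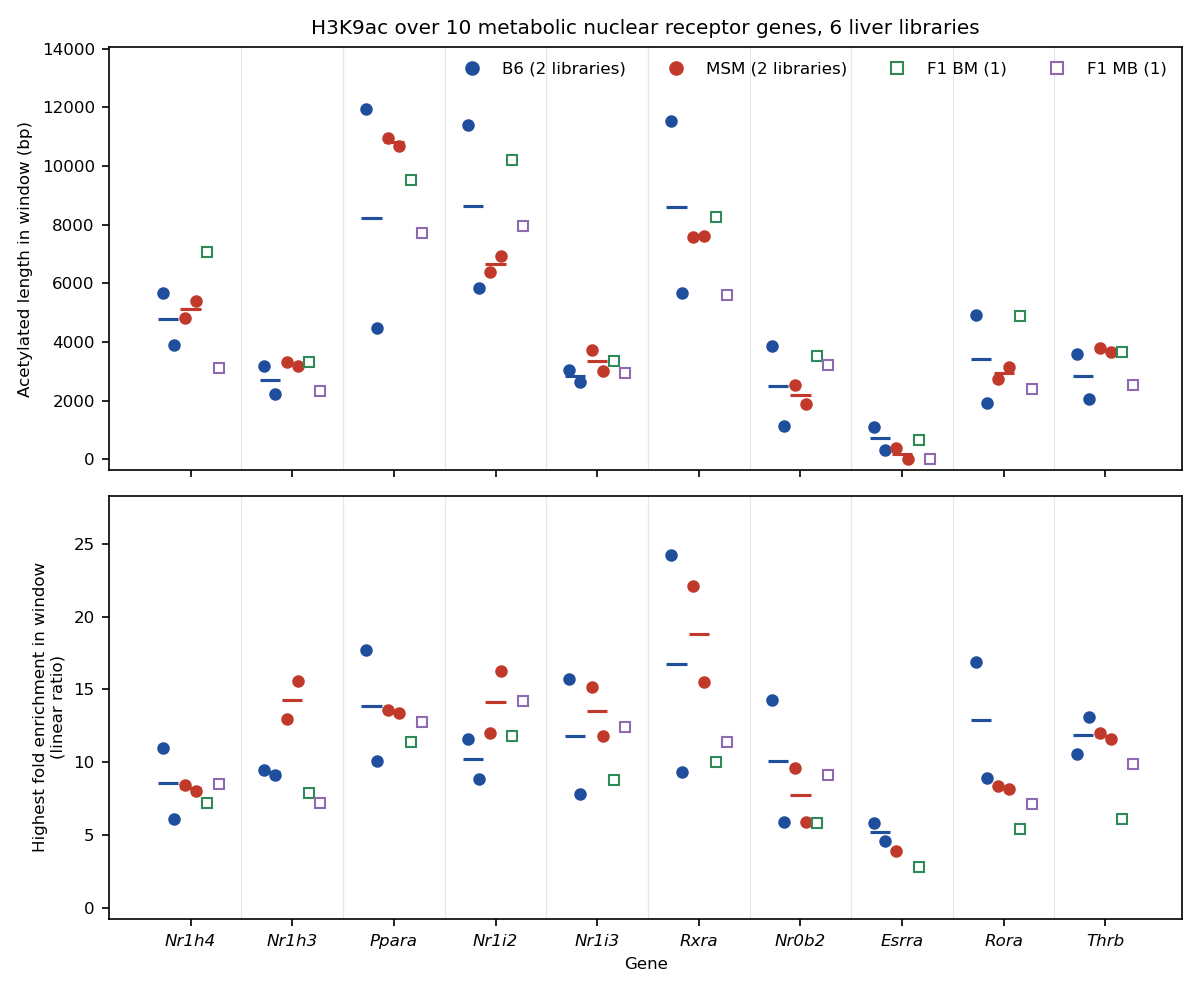
Acetylated length (top, bp under peaks in the gene window) and highest fold enrichment of a peak (bottom, linear ratio given by the authors' peak caller) for each gene and library. Filled circles are B6 and MSM libraries, open squares the 2 F1 libraries, and short lines the strain means over 2 libraries. B6 replicate 1 and B6 replicate 2 enclose both MSM values of length for Nr1h4, Ppara, Nr1i2, Rxra, Nr0b2 and Rora, and a gene without a peak has no point in the lower panel.

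The starts of these genes differ in sequence. Counts of CpG in the RefSeq promoter (250 bp before to 50 bp after a start, GRCm38.p6) were 55 for Rxra, 37 for Thrb and 30 for Ppara, whose RefSeq starts lie 761, 699 and 793 bp downstream of the gene start used here, 28 for the upstream start of Rora and 25 for Esrra, all above the upper quartile of 20 over 32851 promoters. They were 8 and 10 for the coding starts of Nr1h3, 7 for the internal start of Nr1h4, 3 for Nr1i3, 3 for Nr0b2 and 2 for Nr1i2, against a median of 7. The internal starts of Rxra and Thrb had 1 and 4. The 150 bp before 6 starts are shown 5′ to 3′ along the gene, with CpG in capitals. They were picked after their values were seen, and no relation between CpG and acetylation is read from them. A peak lay within 500 bp of the first pair in 4 libraries and in 1, and within 500 bp of the others in all 6.
Esrra, chr19:6921814-6921963, minus strand: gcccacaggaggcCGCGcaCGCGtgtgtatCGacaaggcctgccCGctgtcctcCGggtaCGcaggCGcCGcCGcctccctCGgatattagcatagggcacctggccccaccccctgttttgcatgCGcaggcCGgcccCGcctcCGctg
Rora, upstream start, chr9:68653636-68653785, plus strand: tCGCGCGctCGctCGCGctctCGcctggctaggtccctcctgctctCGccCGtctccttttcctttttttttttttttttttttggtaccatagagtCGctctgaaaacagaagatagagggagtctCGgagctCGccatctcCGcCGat
Rora, internal start, chr9:69289532-69289681, plus strand: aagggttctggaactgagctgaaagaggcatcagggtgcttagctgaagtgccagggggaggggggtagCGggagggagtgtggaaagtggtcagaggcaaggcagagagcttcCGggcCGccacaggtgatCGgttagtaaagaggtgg
Nr1i2, chr16:38294825-38294974, minus strand: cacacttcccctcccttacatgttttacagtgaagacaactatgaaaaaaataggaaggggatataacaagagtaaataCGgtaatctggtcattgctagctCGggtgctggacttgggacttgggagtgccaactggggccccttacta
Nr1i3, chr1:171213820-171213969, plus strand: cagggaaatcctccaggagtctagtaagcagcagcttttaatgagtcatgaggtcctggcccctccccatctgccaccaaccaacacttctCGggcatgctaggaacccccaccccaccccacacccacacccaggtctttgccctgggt
Nr0b2, chr4:133553226-133553375, plus strand: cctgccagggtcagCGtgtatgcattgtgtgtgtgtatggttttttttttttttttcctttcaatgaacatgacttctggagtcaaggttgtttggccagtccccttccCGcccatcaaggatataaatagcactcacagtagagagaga
These stretches hold 16 and 14 CpG for Esrra and the upstream start of Rora, 4 for the internal start of Rora, 2 for Nr1i2, 1 for Nr1i3 and 2 for Nr0b2. In the same measure the gene starts of Thrb and Rxra hold 8 and 5, with a peak in all 6 libraries, and the most downstream coding start of Thrb holds 1, with a peak in none.

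**Figure D2:**
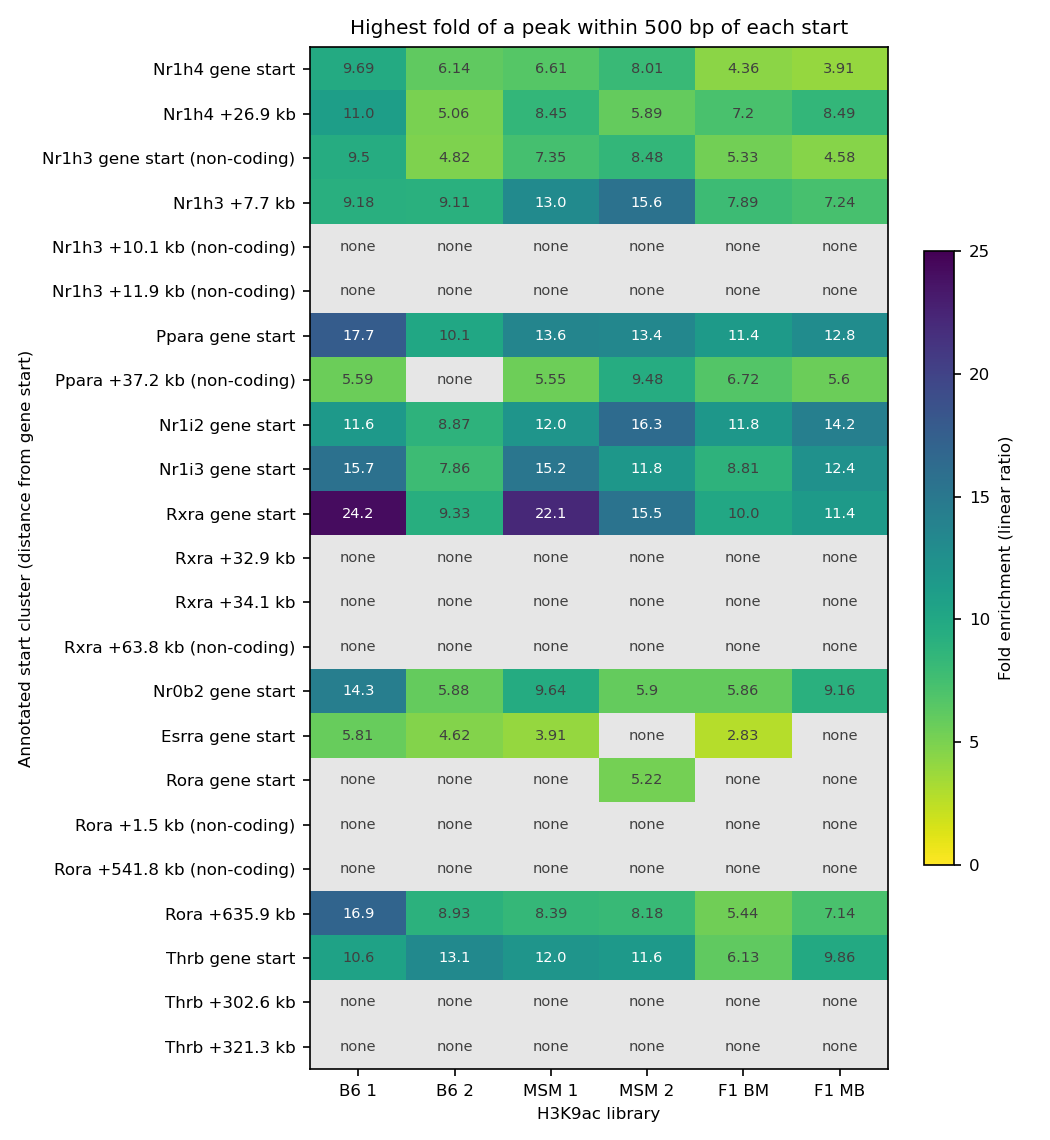
Highest fold enrichment (linear ratio, colour and number) of a peak within 500 bp of each annotated cluster of starts, for the 6 libraries in columns. Rows give the distance from the gene start, and "none" marks no peak. Nr1h4 and Nr1h3 have peaks at both a first and an internal start in all 6 libraries, Rora at its internal start in all 6, and the internal starts of Rxra and Thrb in none.

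Nr1h4, the bile acid receptor (chr10:89454234-89533585, minus strand), was acetylated at both of its promoters. At the gene start the highest fold was 9.69 and 6.14 in the B6 replicates, 6.61 and 8.01 in the MSM replicates, 4.36 in F1 BM and 3.91 in F1 MB. At the coding start 26927 bp downstream it was 11 and 5.06 in B6, 8.45 and 5.89 in MSM, 7.20 in F1 BM and 8.49 in F1 MB. Strains overlapped at both starts. The internal start was the higher in B6 replicate 1, MSM replicate 1 and both F1 libraries, and the gene start in B6 replicate 2 and MSM replicate 2. The acetylated length was 5684 and 3902 bp in B6, 4813 and 5413 bp in MSM, 7069 bp in F1 BM and 3112 bp in F1 MB. The domain at the gene start ended at different places upstream. It reached 588 and 507 bp upstream of the start in B6, 22 and 11 bp in MSM, 568 bp in F1 BM and 6 bp in F1 MB. The B6 libraries and F1 BM lay at 507 bp or more and the MSM libraries and F1 MB at 22 bp or less. MSM minus B6 was -531 bp against a pooled within-strain SD of 40.9 bp (two-sided exact permutation p = 0.333, the smallest that 2 against 2 libraries allow). The part upstream was a peak of its own in B6 replicate 2 (507 to 176 bp upstream, fold 3.01) and in F1 BM (568 to 144 bp, fold 3.92) and part of the main peak in B6 replicate 1. Leaving out a library gave -572 to -490 bp, but without joining of peaks the strains overlapped (-284 bp).

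Nr0b2, which encodes the corepressor SHP (chr4:133553376-133556536, plus strand), carried a domain that ran from near its start over the whole gene in B6 replicate 1 and both F1 libraries and ended within the gene in the others. Acetylated length was 3876 and 1122 bp in B6, 2526 and 1891 bp in MSM, 3508 bp in F1 BM and 3230 bp in F1 MB. The highest fold was 14.3 and 5.88 in B6, 9.64 and 5.90 in MSM, 5.86 in F1 BM and 9.16 in F1 MB. In both measures the MSM values lay between those of the B6 replicates. Per length of window this was one of the most densely acetylated of the 10 genes, with 11.2 to 38.8% of its window under peaks, beside 22.5 to 31.8% for Nr1i3 and 0.542 to 0.994% for Thrb.

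Nr1h3, the oxysterol receptor (chr2:91184061-91202834, minus strand), had 2 acetylated regions. The first, at the annotated gene start, overlaps the start of the neighbour Acp2 on the other strand, so its signal cannot be assigned to either gene. The second began at the coding starts 7683 to 7949 bp downstream. There the highest fold was 9.18 and 9.11 in B6, 13.0 and 15.6 in MSM, 7.89 in F1 BM and 7.24 in F1 MB. Both MSM libraries stood above both B6 libraries and both F1 libraries below all 4. Over the gene window MSM minus B6 was 4.96 against a pooled SD of 1.33 (exact permutation p = 0.333, the smallest possible), and 0.755 within 5 kb of the gene start, a window without the coding starts. In B6 replicate 1 the highest peak of the gene window (fold 9.5) lay in the first region, shared with Acp2. In the other libraries it lay at the coding starts, so values over the window mix the 2 regions. The percentiles within the lists were 86.4 and 97.0 in B6, 98.4 and 99.3 in MSM, 97.3 in F1 BM and 87.4 in F1 MB, so the strains did not overlap on that scale either, though by 1.39 points only. Acetylated length overlapped, with 3181 and 2224 bp in B6 and 3324 and 3178 bp in MSM.

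Nr1i2, the pregnane X receptor (chr16:38248323-38294824, minus strand), was acetylated in a chain of peaks over the start and the introns that follow. Acetylated length was 11411 and 5842 bp in B6, 6372 and 6924 bp in MSM, 10203 bp in F1 BM and 7973 bp in F1 MB, and the strains overlapped, but did not with the same covered length in every list (B6 longer). The highest fold lay at the start, with 11.6 and 8.87 in B6, 12 and 16.3 in MSM, 11.8 in F1 BM and 14.2 in F1 MB. Both MSM values were above both B6 values, by a gap of 0.383 (MSM minus B6 3.88, pooled SD 2.53, exact permutation p = 0.333). The difference was 1.77 without MSM replicate 2, 2.49 without B6 replicate 2 and 5.99 without MSM replicate 1. Of its 11 regions, 6 had a peak in all 4 parental libraries.

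An intronic region 11210 to 13249 bp downstream of the Nr1i2 start differed in the opposite direction. It held 2040 and 859 bp under peaks in B6, 220 and 314 bp in MSM, 1588 bp in F1 BM and 984 bp in F1 MB. Both F1 libraries lay within the range of B6, and both MSM libraries below. The fold of its peak was 11.2 and 8.13 in B6, 3.0 and 3.69 in MSM, 4.30 in F1 BM and 5.86 in F1 MB. With the same number of peaks or the same covered length in every list, both B6 values stayed as they were and both MSM values were 0. The region was singled out after its values were seen. The 200 bp around the summit of B6 replicate 1 follow, shown because the summit lies in a repeat, in the direction of the gene. Half-sites would stand in capitals, and the stretch holds 0.
Nr1i2, intron, chr16:38282339-38282538, minus strand: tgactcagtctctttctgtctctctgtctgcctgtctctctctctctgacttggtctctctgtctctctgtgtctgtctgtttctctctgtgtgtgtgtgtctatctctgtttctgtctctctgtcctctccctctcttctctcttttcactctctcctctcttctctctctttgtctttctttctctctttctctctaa
This stretch is repeat-masked in the reference over 100% of its bases. The summits of both B6 and both F1 libraries lay 12324 to 12392 bp from the start, in windows of 300 bp masked over 87.7 to 100%. The MSM summits lay at 12032 and 11997 bp, in windows masked over 0%. Among the 75 regions of the 10 genes, 3 (4.0%) had a summit window masked over at least 50% of its bases, beside 3.83% of all 25803 regions. MSM reads, like those of B6, were mapped to the B6 genome, and the part of the repeat in this difference was not tested.

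**Figure D3:**
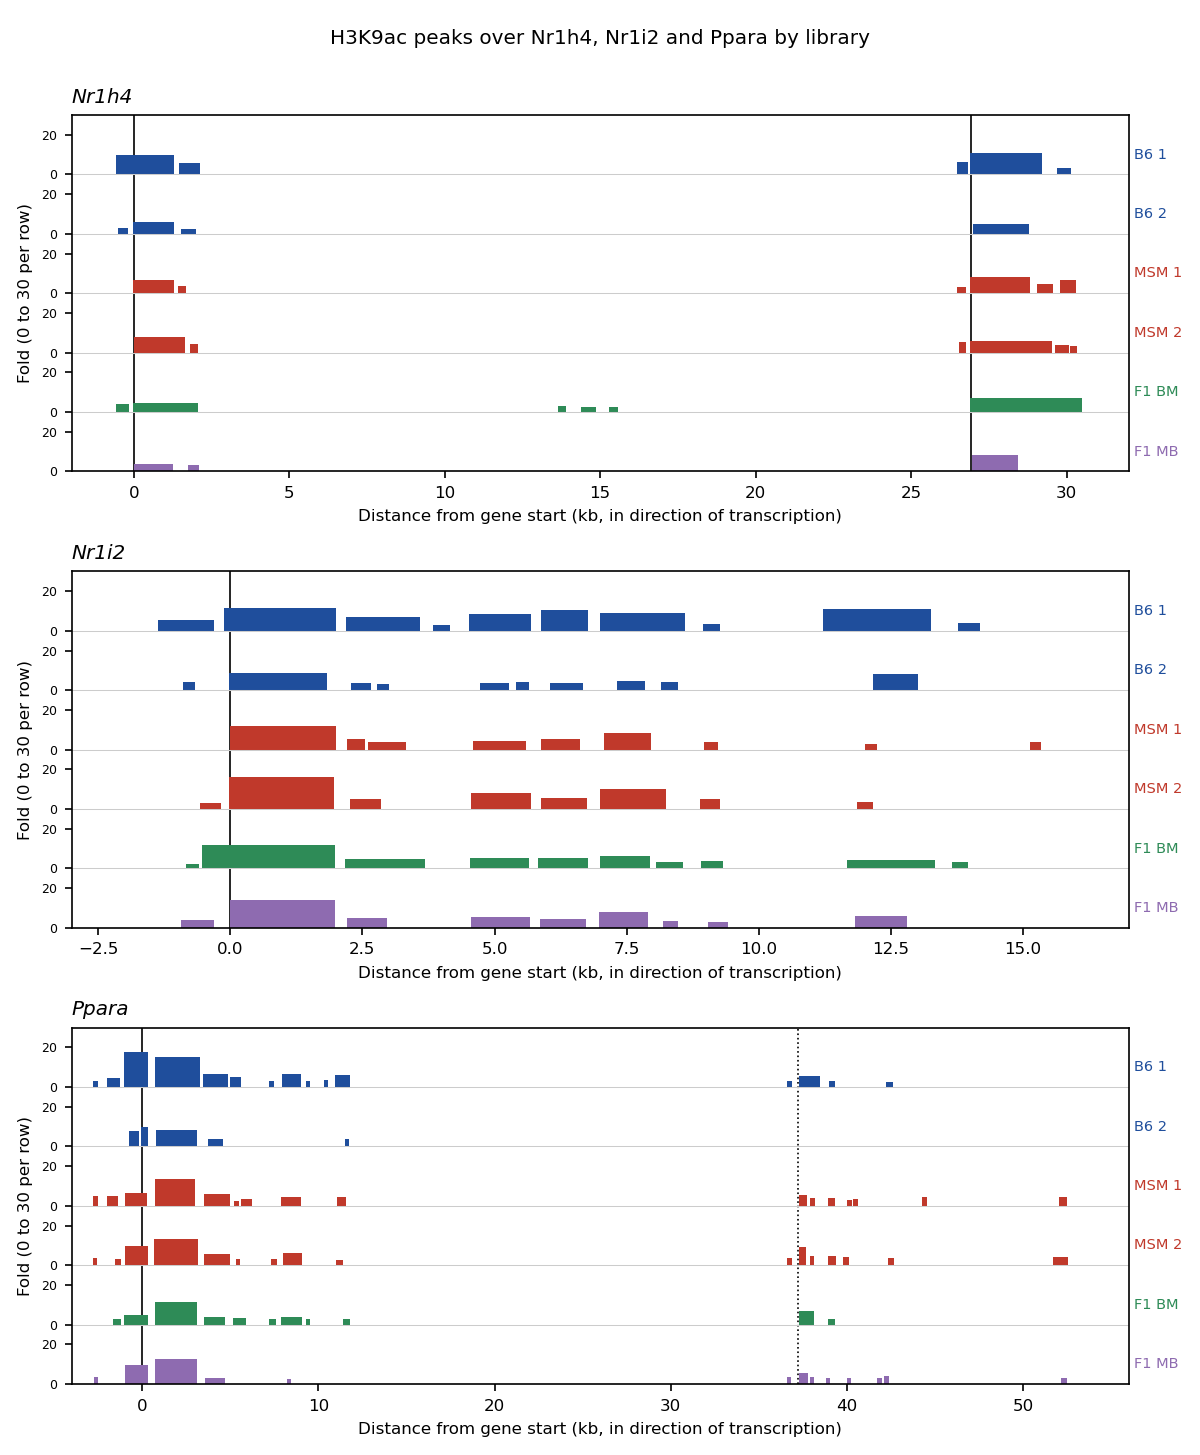
Peaks of the 6 libraries over Nr1h4, Nr1i2 and Ppara, placed by distance from the gene start in kb, with bar height the fold enrichment (0 to 30 in each row). Solid vertical lines mark the first start of each cluster with a coding transcript and dotted lines those without. The Nr1h4 domain crosses the start by over 500 bp in the B6 libraries and F1 BM only, and the Nr1i2 peak beyond 11 kb is widest in B6 replicate 1 and narrowest in the MSM libraries.

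Nr1i3, the constitutive androstane receptor (chr1:171213970-171220701, plus strand), had strong peaks at its start. The highest fold was 15.7 and 7.86 in B6, 15.2 and 11.8 in MSM, 8.81 in F1 BM and 12.4 in F1 MB. Both MSM values lay between those of the B6 replicates. Acetylated length was 3037 and 2644 bp in B6, 3732 and 3004 bp in MSM, 3339 bp in F1 BM and 2928 bp in F1 MB, with the strains overlapping. The domain reached 2334 and 2222 bp downstream in B6, 3020 and 2623 bp in MSM, 2792 bp in F1 BM and 2290 bp in F1 MB. Both MSM values were above both B6 values (MSM minus B6 544 bp, pooled SD 206 bp, exact permutation p = 0.333). The difference was 345 bp without MSM replicate 1, and 310 bp with the same number of peaks or covered length in every list or without joining of peaks. The downstream edge overlaps the gene Tomm40l, so it cannot be assigned to Nr1i3 alone.

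Ppara, the fatty acid receptor (chr15:85734983-85802819, plus strand), had the longest acetylated length in bp of the 10 genes, by the median of the libraries, and the most regions with peaks (18). Acetylated length was 11955 and 4469 bp in B6, 10946 and 10699 bp in MSM, 9525 bp in F1 BM and 7702 bp in F1 MB. Both MSM values lay between those of the B6 replicates. The highest fold was 17.7 and 10.1 in B6, 13.6 and 13.4 in MSM, 11.4 in F1 BM and 12.8 in F1 MB, which stood at percentiles from 98.3 to 99.7 in every list. A second group of peaks lay around a non-coding start 37231 bp downstream. Within 500 bp of that start the highest fold was 5.59 in B6 replicate 1, 5.55 and 9.48 in MSM, 6.72 in F1 BM and 5.60 in F1 MB, while B6 replicate 2 had no peak there. A pair of MSM-specific regions, with a peak in both MSM libraries and in neither B6 library, lay in this gene. One, in an intron at 39769 to 40264 bp, held 267 and 346 bp in MSM and 243 bp in F1 MB. The other, which includes coding sequence at 51692 to 52531 bp, held 447 and 840 bp in MSM and 346 bp in F1 MB. F1 BM had no peak in either. Over the genome 3.38% of regions were MSM-specific, and both of these lost the call with the same number of peaks or the same covered length in every list.

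Esrra, a receptor without a known natural ligand that drives mitochondrial genes (chr19:6910977-6921813, minus strand), had the shortest acetylated length and the lowest fold of the 10. Its highest fold was 5.81 and 4.62 in B6, 3.91 in MSM replicate 1 and 2.83 in F1 BM, and MSM replicate 2 and F1 MB had no peak in the window. Acetylated length was 1113 and 323 bp in B6, 397 and 0 bp in MSM, 647 bp in F1 BM and 0 bp in F1 MB. The percentiles of its peaks were 58.1 or lower. The strains overlapped in length, but did not with the same number of peaks in each list (B6 longer).

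Rxra (chr2:27676440-27762957, plus strand) encodes the common partner of FXR, LXR alpha, PPAR alpha, PXR and CAR. Its folds were the highest of the 10 genes in B6 replicate 1 and MSM replicate 1 but in no other library. They were 24.2 and 9.33 in B6, 22.1 and 15.5 in MSM, 10 in F1 BM and 11.4 in F1 MB, all at percentile 97.4 or above in their own list. They lay in an intron, except in F1 MB where the highest peak lay at the start. Acetylated length was 11550 and 5675 bp in B6, 7569 and 7613 bp in MSM, 8252 bp in F1 BM and 5596 bp in F1 MB. The domain at the gene start reached 1183 and 946 bp upstream in B6, 575 and 611 bp in MSM, 754 bp in F1 BM and 244 bp in F1 MB. Both B6 values were above both MSM values (MSM minus B6 -472 bp, pooled SD 120 bp, exact permutation p = 0.333). F1 BM lay between the strains and F1 MB below both. The coding starts 32852 and 34143 bp downstream had no peak in any library.

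Rora, a receptor of the circadian clock and of lipid metabolism (chr9:68653786-69388246, plus strand), was acetylated around an internal start. The most upstream start had a peak in MSM replicate 2 alone, with a fold of 5.22. Peaks flanked the coding start 635896 bp downstream in all 6 libraries. The peak over or just before that start had a fold of 9.11 and 5.0 in B6, 4.53 and 5.81 in MSM, 4.18 in F1 BM and 2.60 in F1 MB. Strains overlapped there. The next one, 636099 to 637575 bp downstream, held the highest fold of the gene, with 16.9 and 8.93 in B6, 8.39 and 8.18 in MSM, 5.44 in F1 BM and 7.14 in F1 MB. Both B6 values were above the others, with a gap of 0.547 to MSM (MSM minus B6 -4.65, pooled SD 4.0, exact permutation p = 0.333), and MSM minus B6 was -0.65 without B6 replicate 1 and -8.65 without B6 replicate 2. In percentiles the values were 99 and 96.7 in B6, 89.0 and 86.7 in MSM, 88.1 in F1 BM and 86.8 in F1 MB. On this scale MSM minus B6 was -9.96 points with a pooled SD of 1.62. An intronic region at 456820 to 457269 bp had a peak in all 6 libraries, with folds from 4.19 to 8.42.

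Thrb, the thyroid hormone receptor beta (chr14:17660261-18038090, plus strand), was acetylated at its first cluster of starts in all 6 libraries. The highest fold was 10.6 and 13.1 in B6, 12 and 11.6 in MSM, 6.13 in F1 BM and 9.86 in F1 MB, with the B6 replicates enclosing both MSM values. Upstream reach was 954 and 955 bp in B6, 947 and 959 bp in MSM, 1009 bp in F1 BM and 966 bp in F1 MB, with the smallest pooled SD (6.02 bp) of the 8 genes measured. The coding starts 302560 and 321268 bp downstream had no peak in any library. Acetylated length was 3583 and 2074 bp in B6, 3807 and 3655 bp in MSM, 3674 bp in F1 BM and 2522 bp in F1 MB. The strains did not overlap in length, by a gap of 72 bp (MSM minus B6 902 bp, pooled SD 758 bp, exact permutation p = 0.333), and the difference was 148 bp with B6 replicate 1 alone for its strain and 1657 bp with B6 replicate 2 alone. The strains overlapped with the same number of peaks (463 bp), the same covered length (618 bp), a −log10 q of at least 3 (733 bp) and within 5 kb of the start only (164 bp).

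**Figure D4:**
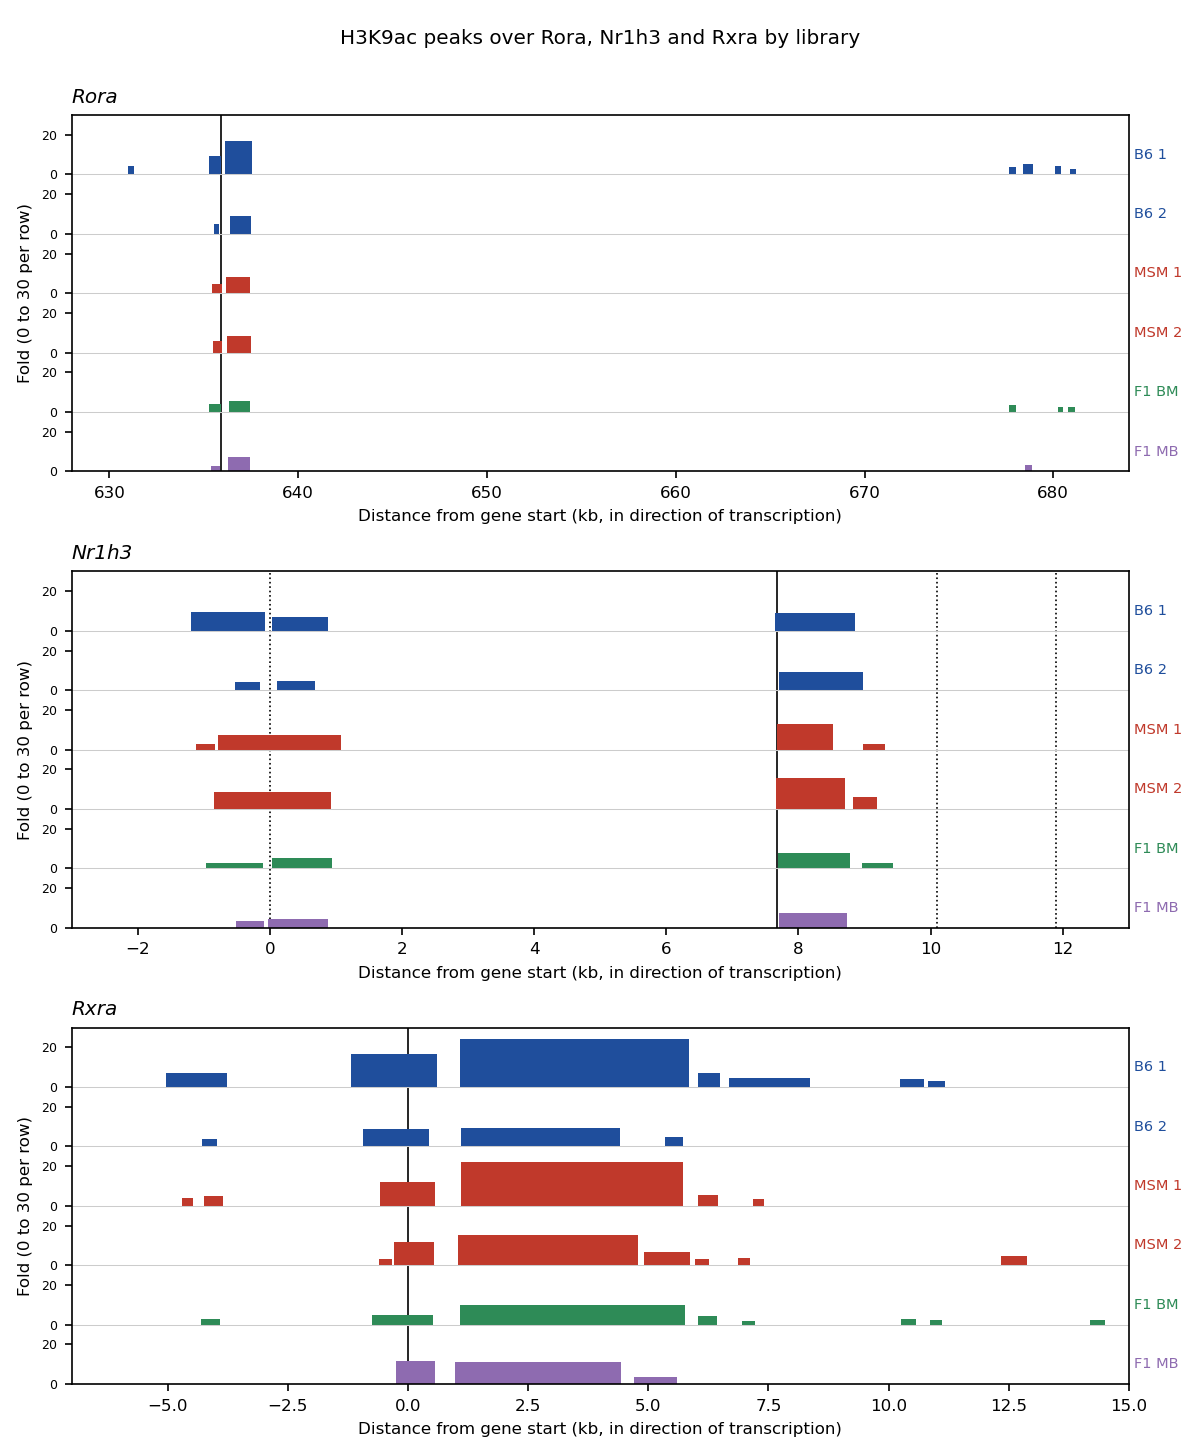
Peaks of the 6 libraries over the 3′ part of Rora, over Nr1h3 and over the 5′ part of Rxra, placed by distance from the gene start in kb, with bar height the fold enrichment (0 to 30 in each row). Vertical lines mark the first start of each cluster, solid with a coding transcript and dotted without. Rora peaks cluster at the internal start in all 6 libraries, the Nr1h3 peak at the coding starts is highest in MSM, and the highest Rxra peak lies downstream of the start in 5 libraries.

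Counted over the genes, the strains did not overlap in acetylated length at 0 of 10 genes with B6 longer and 1 of 10 with MSM longer (Thrb). Over the 11446 genes with a peak in a parental library, 11.6% were longer in B6 and 4.97% longer in MSM. In highest fold, testable in 9 genes, 1 was higher in B6 (Rora) and 2 in MSM (Nr1h3 and Nr1i2), beside 10.8% and 8.59% of 6706 genes. With 10 genes these counts are near the shares over all genes. The MSM mean of acetylated length was the higher in 5 of the 10 genes, in 9 without B6 replicate 1 and in 3 without B6 replicate 2. Without B6 replicate 1 the strains did not overlap in 9 genes with MSM longer, beside 61.2% of all genes tested, and without B6 replicate 2 in 7 genes with B6 longer, beside 84.2%. The lowest adjusted p over the 11446 genes (Benjamini-Hochberg, exact permutation test) was 1.0, since 1892 genes shared the smallest possible p.

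Within the windows the 4 parental lists formed 75 regions. All 4 libraries had a peak in 26, 3 libraries in 14, 2 in 8 and 1 in 27, of which 16 were in B6 replicate 1 alone. None was B6-specific and 5 were MSM-specific, beside 3.29% and 3.38% of the 25803 regions of the genome. The MSM-specific regions were the pair in Ppara, a pair in introns of Rora at 227830 to 228132 and 455783 to 456054 bp, and one in an intron of Thrb at 125426 to 126040 bp. Their folds were 2.53 to 5.15, and an F1 library had a peak in 3 of them. In lists trimmed to an equal number of peaks none of these 5 remained MSM-specific. There 1 other region was MSM-specific and 4 were B6-specific, beside 5.59% and 6.31% of all regions. With equal covered length none of the 5 remained either, and at a −log10 q of at least 3 all but the Thrb region did. Leaving out B6 replicate 1 raised the MSM-specific regions to 16 (22.1% of all regions), and leaving out B6 replicate 2 raised the B6-specific ones to 16 (29.6%). In acetylated length of a region, 3 were longer in both B6 libraries and 10 in both MSM libraries, beside 10.3% and 7.31% over all regions. The 3 longer in B6 were those at the starts of Nr1h4 and Rxra and in the intron of Nr1i2. With the same number of peaks these 3 and 3 of the 10 longer in MSM kept their call, and with the same covered length these 3 and 2 of the 10. At a −log10 q of at least 3 the region of Nr1h4 lost its call and those of Rxra and Nr1i2 kept it, as did 9 of the 10. The F1 libraries had 9 further regions with no parental peak, 8 in F1 BM and 1 in F1 MB, of the 81 regions that all 6 lists formed there (9.88% and 1.23%). Over the genome 6.99% of 27326 such regions were found in F1 BM alone and 0.318% in F1 MB alone.

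Half-sites were looked for in the 300 bp around the summit of each region, on both strands. AGGTCA was present in 21 of the 75 regions (28.0%), beside 15.3% of the 25803 regions. They were all 4 regions of Nr1h4, both regions of Esrra, 6 of the 18 of Ppara, 4 of the 11 of Rxra, 3 of the 15 of Rora, 1 of the 11 of Nr1i2 and 1 of the 6 of Thrb. None of the 2 regions of Nr1h3, the 4 of Nr1i3 and the 2 of Nr0b2 held one. The extended ERR element TCAAGGTCA, which contains the half-site, was present in 2 regions (2.67%, beside 0.663%), one upstream of Esrra, within the gene Catsperz, and one in an intron of Ppara. Pairs of exact half-sites as direct repeats spaced by 1 base (DR1, AGGTCANAGGTCA) or 4 bases (DR4, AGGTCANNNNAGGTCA), or as inverted repeats spaced by 1 base (IR1, AGGTCANTGACCT), were present in 0 regions, beside 0.0388%, 0.0116% and 0% of all regions. These are matches of letters and say nothing of binding.

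The other nuclear receptors, their coregulators and their target genes were set beside the 10 genes as lists. A domain at the gene start in all 6 libraries was found in 10 of 39 other nuclear receptors (25.6%), 7 of 16 coregulators (43.8%) and 27 of 43 targets (62.8%). Nr0b2, one of the 10 genes, is also a target, without which the count is 26 of 42 (61.9%), and Nr1d1 is in both the first and the last list. These counts use the most upstream annotated start only. Hnf4a and Nr3c1, with median acetylated lengths of 9576 and 4250 bp, had a domain there in 0 libraries. Counting the whole window, 51.3% of the other nuclear receptors, 56.2% of the coregulators and 69.8% of the targets had a peak in every library, beside 90.0% of the 10 genes. The median acetylated length was 434 bp, 1302 bp and 1852 bp in these lists, and the median percentile of the highest fold 59.1, 71.0 and 83.4. Among the other nuclear receptors, the profile of fold percentiles over the 6 libraries closest to the median of the 10 genes was that of Nr1d2, then Nr1d1, both repressors of the circadian clock, and Nr3c1, the glucocorticoid receptor, with mean differences of 2.02, 2.07 and 2.61 points. Ppard, a close relative of Ppara, had 3548 and 1910 bp in B6, 857 and 832 bp in MSM, 2196 bp in F1 BM and 995 bp in F1 MB, so the strains did not overlap. Among the targets, those with non-overlapping strains and a gap of at least 500 bp were Cyp4a14, Alas1, Gstm1 and Arntl. Cyp4a14, a fatty acid hydroxylase induced by PPAR alpha, had 2567 and 1156 bp in B6, 0 bp in both MSM libraries, 3095 bp in F1 BM and 341 bp in F1 MB. Alas1, the rate-limiting enzyme of heme synthesis and a target of PXR and CAR, had 4504 and 1532 bp in B6, 6570 and 5503 bp in MSM, 5886 bp in F1 BM and 3445 bp in F1 MB. Gstm1, a glutathione transferase, had 4878 and 2645 bp in B6 and 1484 and 1662 bp in MSM. Arntl (BMAL1), a clock activator, had 1997 and 1226 bp in B6 and 0 and 650 bp in MSM. Of the tested genes in each list, the strains did not overlap in 4 other nuclear receptors with B6 longer and 1 with MSM longer (of 27), in 0 and 0 coregulators (of 16) and in 8 and 2 targets (of 40), beside the 11.6% and 4.97% of all genes tested. The longest median lengths among the coregulators were those of Ppargc1b, a coactivator of ERR alpha (3119 bp), and Kat2b, a histone acetyltransferase (2396 bp). Among the targets they were those of Alas1 (5004 bp) and Abcc2, the bilirubin conjugate exporter (4994 bp).

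**Figure D5:**
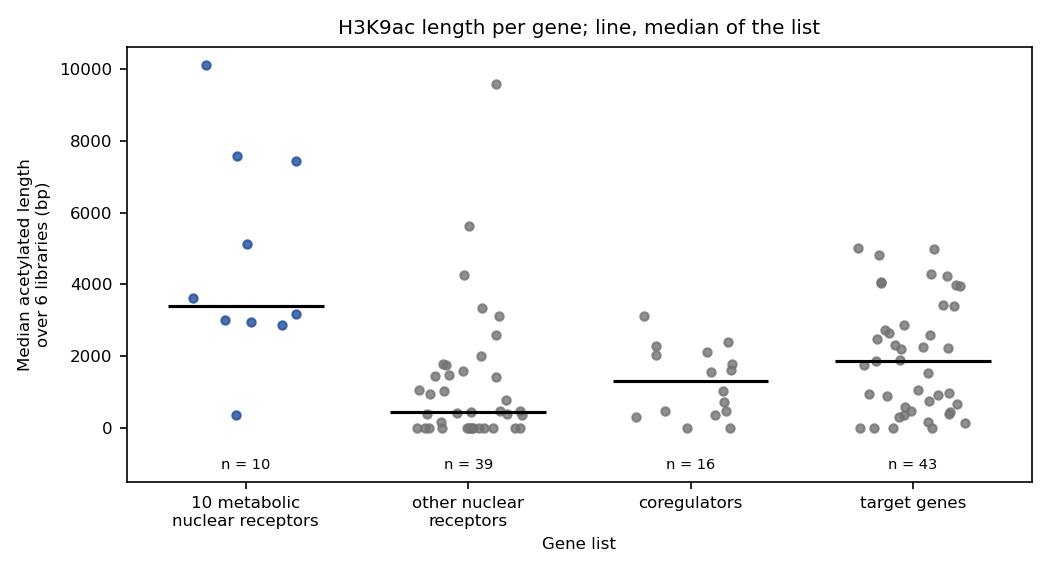
Acetylated length of each gene (median over the 6 libraries, bp) for the 10 metabolic nuclear receptors and 3 gene lists. Each point is a gene and the line is the median of the list, 3399 bp for the 10 genes, 434 bp for 39 other nuclear receptors, 1302 bp for 16 coregulators and 1852 bp for 43 targets, which include Nr0b2.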

How the data were processed

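The 10 genes and the comparison lists were chosen with earlier results of these data known. Per the labels, liver chromatin was fixed with formaldehyde, precipitated with an antibody against H3K9ac (ab4441) and sequenced in paired reads. The submitters' processing notes name Trim Galore, HISAT2, SAMtools, MACS2 and mm10 (GRCm38), whereas the study's methods name Bowtie 2 as the mapper with a long maximal insert. The control and threshold of peak calling are not given in the sources used here. Reads of MSM and the hybrids were mapped to the B6 sequence, so reads over sequence that differs can be lost. Each library had its own peak list, and replicates came from separate mice.

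For each peak the deposited lists give a fold enrichment (linear ratio) and the p-value and q-value, each as its −log10. The deposited score repeats the −log10 q and was not used. The lowest −log10 q of a list was 1.3 to 1.35. The lists hold no read counts behind a peak, and the sequencing yields stated by the study were not used here, so no interval was given.

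Peaks were compared by position in Python 3.11.15 with numpy 2.4.6, on functions first tested on simulated data, and figures were drawn with matplotlib 3.10.9. Regions are the union of the parental peaks, with an overlap of at least 1 bp. Strains did not overlap when both values of one exceeded both of the other. Differences of 2 B6 and 2 MSM libraries were set against all 6 assignments of the libraries (exact permutation test, two-sided), where the smallest p is 0.333, so none could pass 0.05. The F1 libraries, 1 per cross, were described without a test. Listed genes other than the 10 were named by rule: the 3 other nuclear receptors closest in fold percentile, those with a gap of at least 500 bp between strains, and the 2 longest coregulators and targets. Hnf4a was named outside this rule, after its values were seen. Alternatives were lists of the same number of peaks or the same covered length, a stricter −log10 q of 3, other windows and joining distances, each library left out in turn and a replicate block. The 6 input libraries were not analysed here.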

Additional observations from a re-analysis of the deposited data

How the results depend on the processing

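Direction over single genes depended on the list settings and above all on which B6 library was used. For 35 gene values (acetylated length, highest fold and reach), MSM minus B6 was recomputed 140 times with 1 library left out and changed sign in 27. Other settings moved 79 of 155 recomputed values, of which 18 changed sign; trimming the lists moved no highest fold. With lists trimmed to the same number of peaks, acetylated length turned to -165 bp for Nr1h4, 100 bp for Nr0b2 and 236 bp for Rora, and upstream reach to -46.0 bp for Nr1h3. With the same covered length it turned to -18.0 bp for Nr1h4 and 150 bp for Rora, and upstream reach to -46.0 bp for Nr1h3. At a −log10 q of at least 3 the upstream reach of Nr1h3 turned to -46.0 bp and the downstream reach of Nr1h4 to 158 bp. Within 5 kb of the start only, acetylated length turned to -604 bp for Nr1h4 and 126 bp for Rora. In that window the strains did not overlap at Nr1h4 (B6 longer). Without joining of peaks, upstream reach turned to -28.0 bp for Nr1i3 and 309 bp for Thrb, and downstream reach to 182 bp for Nr1h4, -42.5 bp for Ppara, 68.0 bp for Nr1i2 and 26.5 bp for Rxra. With peaks up to 1000 bp apart joined, downstream reach of Rxra turned to 222 bp. The cause was not tested.

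Leaving out each library in turn gave the ranges of MSM minus B6 below, listed only for gene values that changed sign. The sign held for acetylated length of Nr1h3, Nr1i3, Esrra and Thrb and for the highest fold of Nr1h3, Nr1i2 and Rora. It also held for upstream reach of Nr1h4, Ppara and Rxra and for downstream reach of Nr1h3, Ppara and Nr1i3. Acetylated length was -571 to 1211 bp for Nr1h4, -1132 to 6354 bp for Ppara, -4763 to 806 bp for Nr1i2, -3959 to 1916 bp for Rxra, -1668 to 1086 bp for Nr0b2 and -1972 to 1018 bp for Rora. The highest fold was -2.74 to 2.09 for Nr1h4, -4.17 to 3.42 for Ppara, -2.23 to 5.61 for Nr1i3, -5.35 to 9.48 for Rxra, -6.55 to 1.89 for Nr0b2 and -1.28 to 1.16 for Thrb. Upstream reach was -210 to 452 bp for Nr1h3, -1090 to 264 bp for Nr1i2, -9.0 to 652 bp for Nr1i3, -121 to 142 bp for Nr0b2 and -7.5 to 4.5 bp for Thrb. Downstream reach was -398 to 2.0 bp for Nr1h4, -6179 to 75 bp for Nr1i2, -7809 to 106 bp for Rxra, -2196 to 380 bp for Nr0b2 and -243 to 92.0 bp for Thrb.

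The number of genes with a higher MSM mean was 3 to 9 for length (5 with all libraries), 3 to 7 for fold (4), 2 to 5 for upstream reach (4) and 3 to 7 for downstream reach (3; 5 without joining). Genes longer in B6 without overlap numbered 0 to 7 (0 with all), and 1 with the same number of peaks (Esrra) or the same covered length (Nr1i2), beside 19.3% and 15.6% of all genes tested. Those longer in MSM numbered 1 to 9 (1 with all), and 0 with the same number, 3 with the same covered length (Ppara, Nr1i3 and Rora, not Thrb) and 0 at a −log10 q of at least 3, beside 8.87%, 17.5% and 4.94%. B6-specific regions numbered 1 to 16 (0 with all), 4 with the same number and 1 with the same covered length. MSM-specific regions numbered 5 to 16 (5 with all) and 1 with the same number or the same covered length. With lists of the same number, 6.31% of all regions were B6-specific and 5.59% MSM-specific, and with the same covered length 2.92% and 6.11%. Regions longer in B6 were 7 and those longer in MSM 5 with the same number of peaks, beside 16.3% and 9.72% of all regions, and both were 4 with the same covered length, beside 10.9% and 15.4% (3 and 10 with all peaks), settings chosen after seeing the data. The domain at the start in all 6 libraries was found in 8 genes with all peaks, and every alternative count was within 1.5 times of it. The share of all protein-coding genes with such a domain was 21.7% with all peaks. It was 17.5% with the same number of peaks, 10.6% with the same covered length and 20.7% at a −log10 q of at least 3.

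The labels do not say whether the replicate numbers pair the libraries. Deviations from the strain means correlated at r = 0.0832 across 11446 genes, which are not independent. With 2 libraries per strain this value cannot decide whether libraries of the same number share a batch. The replicate block cannot move a difference of means here: it was 902 bp for acetylated length of Thrb and -531 bp for upstream reach of Nr1h4 with it as without it (exact sign-flip p = 0.5 for both, the smallest 2 pairs allow), which says nothing about stability.

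Peak lists without counts, 2 mice per strain and 1 per cross, and a B6 replicate 2 list about as short as that of F1 MB limit all differences given. A gene start was the most upstream annotated one, so Rora, acetylated around an internal start, counts as having a domain in MSM replicate 2 alone. Peaks next to Acp2, Tomm40l and Catsperz cannot be assigned to 1 gene.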
